A study of Mus musculus with 23 samples.

Results

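Natural killer (NK) cell receptors were described here through 7 mouse genes, the receptor genes Ncr1, Klrb1c, Klrd1, Klrc1, Klrk1 and Klre1 and the transcription factor gene Eomes. The members were chosen by symbol, with no measured value in the rule, and all 7 were found among the 26869 genes of the deposited table. Transcript levels came from bulk RNA sequencing of 23 tumors of MC38, a colon cancer cell line of C57BL/6 background. Hosts were female F1 mice of 8 to 12 weeks, each with a C57BL/6J parent and a parent from 1 of 6 Collaborative Cross (CC) lines, a panel of recombinant inbred lines with founders of diverse origin. MC38 cells were injected under the skin of all mice. At a tumor size of 75 to 110 mm3 they were given either an antibody that blocks the checkpoint receptor PD-1 (aPD1) or an isotype control antibody, in both cases 200 µg once into the peritoneum, and tumors were taken after 48 h.

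The study names 3 host lines as responders to aPD1 (R), namely CC001F1 (CC001/UncJ), CC002F1 (CC002/UncJ) and CC075F1 (CC075/UncJ). The 3 non-responders (NR) are CC036F1 (CC036/UncJ), CC079F1 (CC079/TauUncJ) and CC080F1 (CC080/TauUncJ). Each line had 2 tumors per antibody, except CC080F1 with 1 aPD1 tumor, which gave 12 R tumors (6 isotype and 6 aPD1) and 11 NR tumors (6 isotype and 5 aPD1). Every host carried the C57BL/6J haplotype of each gene on 1 chromosome, and the founder haplotype on the other was not analysed here.

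NK cells are lymphocytes that kill stressed or transformed cells without a rearranged antigen receptor. They read the balance between activating receptors, which bind stress ligands, and inhibitory receptors, which bind class I major histocompatibility molecules. Most of the lectin-like receptors are encoded side by side in the NK gene complex, a cluster known for differences in gene content and sequence between mouse strains. Several of these receptors also appear on activated CD8 T cells, so a transcript in a whole tumor does not name its cell of origin.

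The libraries held 14494014 to 71868253 expected counts each (median 42327589), in 17 deep libraries (from 37242363 counts) and 6 shallow ones (up to 18354585 counts, from 2 R and 4 NR tumors). Levels below are normalized counts, that is expected counts divided by the DESeq2 size factor of the library. A change was called at a Benjamini-Hochberg adjusted p under 0.05 over all genes tested in DESeq2. In 3 tumors (CC002F1 isotype replicate 1, CC079F1 aPD1 replicate 1 and CC080F1 aPD1 replicate 1) the 5 lymph node genes summed to 782 to 1227 normalized counts, against 46.7 or fewer elsewhere. The 5 skeletal muscle genes summed to 4886 to 14486 in 4 tumors (CC001F1 isotype replicate 1, CC001F1 aPD1 replicate 1, CC075F1 aPD1 replicate 1 and CC080F1 isotype replicate 2), against 1129.7 or fewer in the others. Counts of members are given below also without these tumors where the count differed.

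Of the 7 members, 5 lie within 0.9 Mb of chromosome 6 (GRCm38), in the NK gene complex. In order along the chromosome these are Klrb1c (ENSMUSG00000030325, chr6:128778485-128789215, minus strand), Klre1 (ENSMUSG00000050241, chr6:129577905-129585827, plus), Klrd1 (ENSMUSG00000030165, chr6:129591782-129598775, plus), Klrk1 (ENSMUSG00000030149, chr6:129610323-129623864, minus) and Klrc1 (ENSMUSG00000030167, chr6:129666015-129678973, minus). Ncr1 (ENSMUSG00000062524, chr7:4337724-4345164, plus) lies in another receptor cluster on chromosome 7. Eomes (ENSMUSG00000032446, chr9:118478212-118486132, plus) is on chromosome 9. All 7 are annotated as protein coding. Klrb1c shares 413 exonic bases on the same strand with Gm44511, a gene with 497 counts in all libraries together, so a small part of its reads could have been split.

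The promoters below are shown because Klrk1 and Klrc1 moved together across tumors and can be set beside Ncr1 and Eomes, which followed other patterns. They are the 250 bases before the RefSeq gene start (GRCm38.p6), written 5′ to 3′ on the strand of the gene, with the Runx core TGTGGT or its reverse complement ACCACA in capitals. The windows are chr6:129623865-129624114 (minus) for Klrk1, chr6:129678974-129679223 (minus) for Klrc1, chr7:4337465-4337714 (plus) for Ncr1 and chr9:118477939-118478188 (plus) for Eomes.
Klrk1: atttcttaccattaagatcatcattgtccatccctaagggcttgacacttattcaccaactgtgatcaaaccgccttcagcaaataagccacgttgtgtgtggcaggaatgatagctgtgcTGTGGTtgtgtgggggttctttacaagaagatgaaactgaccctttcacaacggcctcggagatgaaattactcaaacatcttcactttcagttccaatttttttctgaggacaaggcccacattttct
Klrc1: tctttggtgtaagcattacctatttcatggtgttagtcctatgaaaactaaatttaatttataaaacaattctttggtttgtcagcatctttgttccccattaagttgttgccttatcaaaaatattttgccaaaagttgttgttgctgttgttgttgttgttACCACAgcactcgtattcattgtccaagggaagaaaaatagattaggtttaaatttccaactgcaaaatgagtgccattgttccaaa
Ncr1: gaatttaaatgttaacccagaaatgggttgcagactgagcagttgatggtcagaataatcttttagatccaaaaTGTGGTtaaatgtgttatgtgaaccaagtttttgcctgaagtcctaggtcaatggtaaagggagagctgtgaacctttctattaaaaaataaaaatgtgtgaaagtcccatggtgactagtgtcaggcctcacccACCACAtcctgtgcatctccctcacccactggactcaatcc
Eomes: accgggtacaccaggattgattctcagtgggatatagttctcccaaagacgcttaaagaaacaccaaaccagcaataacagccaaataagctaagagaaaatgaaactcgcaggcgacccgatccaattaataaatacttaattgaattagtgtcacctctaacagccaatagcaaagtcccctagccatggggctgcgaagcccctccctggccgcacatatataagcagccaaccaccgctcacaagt
Runx factors are regulators of lymphocyte genes, and T-box factors include EOMES itself. The Runx core was found in 5 of the 6 member windows available (Ncr1, Klrb1c, Klrc1, Klrk1 and Klre1, not Eomes), and in 14.2% of 27025 windows of the same length. The T-box site GGTGTGA or TCACACC was found in 0 of the 6 and in 3.31% of all windows. Both motifs were chosen after the sequences had been seen, overlap nowhere in these windows, and are matches of letters only.

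Every member was detected in each of the 23 tumors. Per kb of exon, mean normalized counts were 142 for Klrd1, 92.9 for Klrc1, 69.7 for Klrk1, 59.4 for Ncr1, 29.5 for Eomes, 27.2 for Klrb1c and 19.7 for Klre1. The least sampled value was 6 raw counts, for Klre1 in CC036F1 isotype replicate 1, so low Klre1 values are imprecise. CC075F1 aPD1 replicate 1 was the highest tumor for all 7 members. In whole tumors, fewer NK or T cells and less RNA per cell cannot be told apart.

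**Figure D1:**
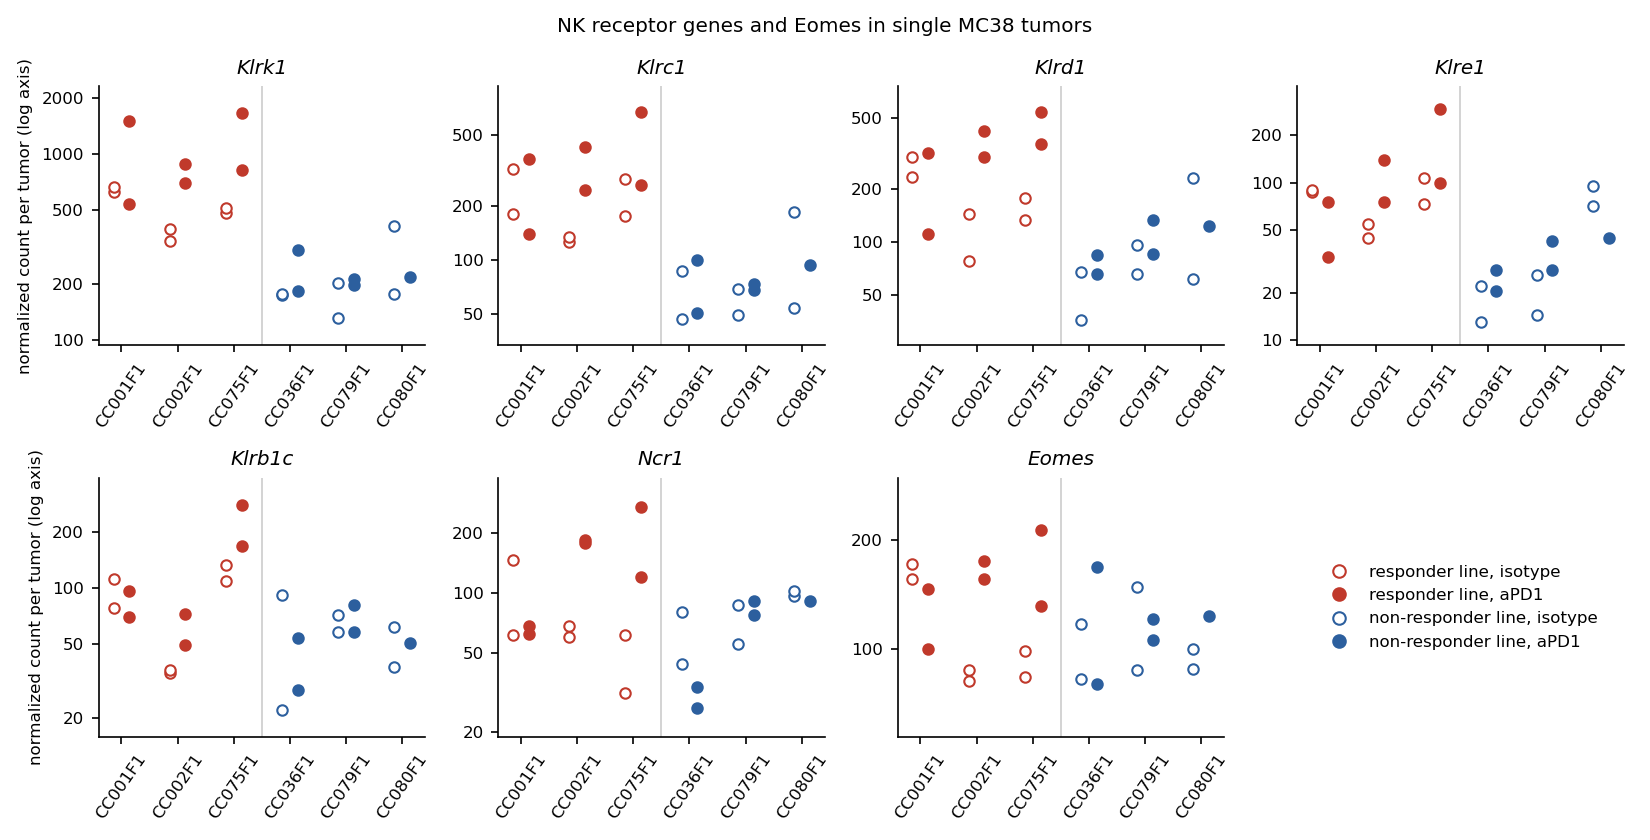
Normalized counts (log axes, each panel with its own range) of the 7 members in 23 single tumors by host line. Red points are responder lines and blue points non-responder lines, open points are isotype and filled points aPD1 tumors. For Klrk1 and Klrc1, all filled red points lie above all filled blue points, while Ncr1 and Eomes overlap widely.

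The first comparison asked whether tumors of R and NR hosts differed in these receptors. With both antibodies pooled and antibody in the model, 5 of the 7 members were higher in R tumors (Klrk1, Klrc1, Klre1, Klrd1 and Klrb1c) and none was lower. Of all genes tested, 7.66% were called and higher. The median log2 difference of the members was 1.34, against -0.00 over all genes tested. Ncr1 (0.51 ± 0.30 on the log2 scale, SE) and Eomes (0.23 ± 0.17) were not called, with adjusted p of 0.263 and 0.398 in DESeq2.

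Klrk1 encodes NKG2D, an activating receptor for stress-induced ligands. Normalized counts of Klrk1 in isotype tumors of R lines were 343 at the lowest, 499 at the median and 665 at the highest, against 131, 176 and 409.5 in NR lines. In aPD1 tumors the R lines had 538, 852 and 1662, and the 5 NR tumors had 304 and 183 (CC036F1), 212 and 199 (CC079F1) and 219 (CC080F1). The aPD1 groups did not overlap, and in isotype tumors only CC080F1 replicate 1 reached into the R range. Klrk1 was 3.23-fold higher in R tumors over both antibodies, a log2 difference of 1.69 ± 0.23 (DESeq2 adjusted p = 3.64e-10).

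Klrc1 encodes NKG2A, an inhibitory receptor for the non-classical class I molecule Qa-1. Its normalized counts in isotype tumors were 127, 180.2 and 326 (lowest, median, highest) in R lines and 46.8, 61.5 and 187 in NR lines. With aPD1 they were 141, 317 and 674 in R lines, and in NR lines 100.4 and 50.8 (CC036F1), 68.6 and 73.9 (CC079F1) and 93.6 (CC080F1). As for Klrk1, the aPD1 groups did not overlap and the highest NR isotype tumor was CC080F1 replicate 1. The log2 difference over all tumors was 1.73 ± 0.26, a fold of 3.31 (DESeq2 adjusted p = 1.61e-08).

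Klrd1 encodes CD94, the partner chain with which NKG2A forms its receptor. Its normalized counts ran from 78.1 to 544 in R tumors (median 267) and from 36.2 to 229 in NR tumors (median 84.2), so the classes overlapped. Klrd1 was 2.54-fold higher in R tumors (log2 1.34 ± 0.31, DESeq2 adjusted p = 0.000414). Klre1, a lectin-like receptor that pairs with the KLRI chains, ran from 34 to 294 in R tumors (median 81.4) and from 13 to 94.8 in NR tumors (median 28). The Klre1 ranges overlapped, with the 3 tumors of CC080F1 and CC079F1 aPD1 replicate 2 above the lowest R tumor, and the log2 difference was 1.37 ± 0.34 (fold 2.58, DESeq2 adjusted p = 0.00118). Without CC036F1, the line with the lowest Klre1, it was 1.02 (adjusted p = 0.053).

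Klrb1c encodes NK1.1, the surface antigen by which NK cells are commonly identified in C57BL/6 mice. It ran from 34.7 to 281 normalized counts in R tumors (median 87.4) and from 22.1 to 91.3 in NR tumors (median 57.6), and 6 of the 12 R tumors lay above all NR tumors. Its log2 difference was 0.87 ± 0.30 (DESeq2 adjusted p = 0.0274). Without CC075F1, the line with its highest levels, the difference was 0.32 and no longer called (adjusted p = 0.519), and it was not called without CC001F1, CC036F1 or CC080F1 either (adjusted p from 0.0605 to 0.119). Leaving out 1 tumor ended the call for each of CC075F1 isotype replicate 2, CC075F1 aPD1 replicates 1 and 2, CC036F1 isotype replicate 2, CC036F1 aPD1 replicate 1 and CC080F1 aPD1 replicate 1, with adjusted p from 0.0503 to 0.0826.

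Ncr1 encodes NKp46, a receptor largely restricted to NK cells and related innate lymphocytes. Its normalized counts in R tumors ran from 31.7 to 272 with a median of 68.2, and in NR tumors from 26.6 to 102 with a median of 80.4. The R median was thus the lower one although the R mean was higher (109.7 ± 72.1, SD, n = 12, against 71.7 ± 26.8, n = 11). Eomes, needed for NK cell maturation and also induced in activated CD8 T cells, ran from 81.2 to 213 in R tumors and from 79.8 to 168 in NR tumors. Both genes overlapped between the classes over most of their range.

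In edgeR, 4 of the 7 members were called higher in R tumors, all but Klrb1c among those above, where 3.88% of genes were. In limma with host line as a random effect the same 4 were called, where 3.80% of genes were. The 17 deep libraries gave the same 5 members as DESeq2 over all tumors (5.76% of genes). All 5 were also called without the 3 tumors with lymph node genes (6.23%), and 4, without Klrb1c, were called when the 4 tumors with muscle genes were left out (5.87%). Tumors of a line were treated as independent in all of these except limma. Limma used a single within-line correlation for all genes, estimated at 0.0152, and so treated these tumors as nearly independent too.

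**Figure D2:**
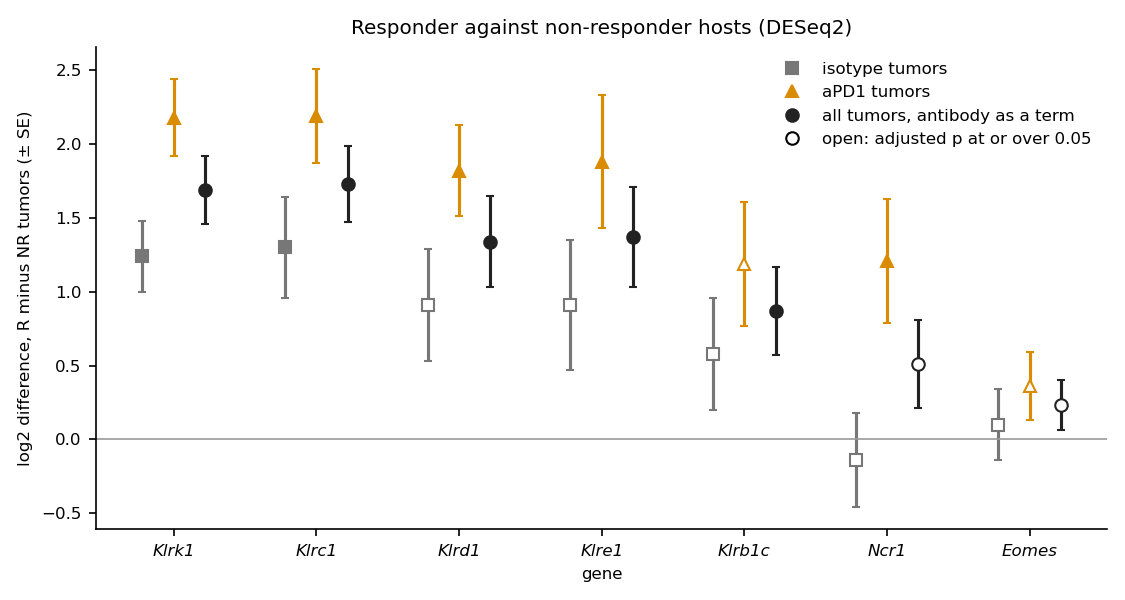
Log2 differences between responder and non-responder tumors in DESeq2 for the 7 members, with the standard error as bars. Gray squares are isotype tumors, orange triangles aPD1 tumors and black circles both antibodies together (adjusted for antibody), and open symbols mark an adjusted p at or over 0.05. Differences for Klrk1 and Klrc1 are above 1 in all 3 sets, and that for Ncr1 is -0.14 in isotype and 1.21 in aPD1 tumors.

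Within isotype tumors, 2 members were higher in R lines, Klrc1 (log2 1.30 ± 0.34, DESeq2 adjusted p = 0.00778) and Klrk1 (1.24 ± 0.24, adjusted p = 0.000146), where 2.29% of genes were called and higher. Neither was called in edgeR (0.0326% of genes), in which 3 members had an unadjusted p under 0.05. Neither was called in limma (0 of 24538 genes called and higher) or in the deep libraries (0.0756% of genes). Klrd1 and Klre1, each 0.91 higher on the log2 scale, were not called (adjusted p = 0.141 and 0.225). Without CC080F1 isotype replicate 1, calls over all genes in either direction went from 829 of 14995 to 1281 of 15209. Both members were called in that fit (1.43 and 1.44, adjusted p = 0.000592 and 0.00938 in DESeq2). That tumor had 409.5 Klrk1, 229 Klrd1, 187 Klrc1 and 94.8 Klre1 normalized counts, each the highest of the NR isotype tumors, and 508 of Cd8a, the CD8 T cell gene. The Ncr1 and Eomes differences were -0.14 ± 0.32 and 0.10 ± 0.24.

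Within aPD1 tumors, 5 members were higher in R lines, Klrk1 (2.18 ± 0.26, a fold of 4.54), Klrc1 (2.19 ± 0.32, a fold of 4.56), Klre1 (1.88 ± 0.45), Klrd1 (1.82 ± 0.31) and Ncr1 (1.21 ± 0.42, adjusted p = 0.0461 in DESeq2). Of all genes tested, 5.94% were called and higher. Every R tumor lay above every NR tumor for 2 members, Klrk1 and Klrc1, as for 2.63% of genes. In edgeR 3 members were called (1.93% of genes) and in limma only Klrk1 (0.726% of genes). The deep libraries gave the same 5 (4.73%), and 4 were called without the tumors with muscle genes (4.86%), where Ncr1 had an adjusted p of 0.109.

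Ncr1 in aPD1 tumors had 68.1 and 62.1 normalized counts in CC001F1, 179 and 185 in CC002F1 and 272 and 121 in CC075F1. The NR lines had 33.7 and 26.6 in CC036F1, 78 and 91.8 in CC079F1 and 91.8 in CC080F1. CC001F1 therefore lay below 2 of the 3 NR lines, and CC036F1 below all other lines. The call of Ncr1 was lost when any of 7 tumors was left out (both of CC002F1, CC075F1 and CC036F1, and CC079F1 replicate 1), with adjusted p from 0.0574 to 0.184. Klrb1c was not called in aPD1 tumors (1.19 ± 0.42, adjusted p = 0.0534 in DESeq2) but passed without CC001F1 replicate 1, without either CC002F1 tumor or without CC079F1 replicate 2 (adjusted p from 0.0165 to 0.0404).

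The next question was how the 6 host lines ranked, in a test that included the difference between the classes. With antibody as a term, 5 members differed among lines in a likelihood ratio test of DESeq2 (all but Ncr1 and Eomes), where 16% of genes did, and the same 5 in edgeR, where 6.32% did. The highest and lowest lines differed by 2.72 for Klre1, 2.37 for Klrc1, 2.16 for Klrd1, 2.13 for Klrk1 and 1.85 for Klrb1c on the log2 scale. Mean log2 levels of all 3 R lines lay above those of all 3 NR lines for 4 members (Klrd1, Klrc1, Klrk1 and Eomes), as for 12.9% of genes. Leaving out CC036F1 ended the call of Klrd1 (adjusted p = 0.239) and leaving out CC075F1 that of Klrb1c (adjusted p = 0.209).

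For Klrk1 the order by mean normalized count was CC075F1 (869.7 ± 549.6, SD, n = 4), CC001F1 (833 ± 451), CC002F1 (581 ± 257), CC080F1 (268 ± 124, n = 3), CC036F1 (209 ± 63.5) and CC079F1 (186 ± 37). Klrc1 and Klrd1 had the same first 4 lines, from 351 and 303 in CC075F1 to 112 and 138 in CC080F1. Neighbors in these orders overlapped at every step, so only distant lines were apart. Eomes spanned the least, from 143 ± 30.8 in CC001F1 to 103 ± 17.8 in CC080F1, and all its neighbors overlapped.

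Lines of the same class differed for 2 members, Klrb1c (adjusted p = 0.000827) and Klre1 (adjusted p = 0.00447) in DESeq2, where 6.29% of genes did. Klrd1, Klrc1 and Klrk1 were not called here (adjusted p = 0.353, 0.512 and 0.572 in DESeq2). In edgeR only Klrb1c was called, where 1.91% of genes were, and Klre1 had an adjusted p of 0.0636. Klrb1c had 109, 133, 281 and 169 normalized counts in CC075F1 and 34.7, 36.2, 49.5 and 72.8 in CC002F1. Within the R class these lines did not overlap, a separation that was not counted over all genes. The mean of CC002F1 (48.3 ± 17.6) was the lowest of all 6 lines. Without CC002F1 or CC075F1 the lines of a class were not called apart for Klrb1c (adjusted p = 0.266 and 0.305).

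Klre1 split the NR class in another way. CC080F1 had 94.8, 71.7 and 44.9 normalized counts, against 13, 22.1, 28.1 and 20.6 in CC036F1 and 14.5, 25.8, 28 and 42.6 in CC079F1. CC080F1 overlapped neither of the other NR lines and lay within reach of CC001F1 (34 to 90.1). This step between CC080F1 and CC079F1 was the only one in the orders of the 7 members at which neighboring lines did not overlap. It was narrow (44.9 against 42.6 normalized counts), and how many other genes have such a step was not counted. The Klre1 call was lost without CC080F1 isotype replicate 1 (adjusted p = 0.0994), without CC080F1 (0.489) and without CC036F1 (0.123).

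Ncr1 had no called difference among lines (adjusted p = 0.376 in DESeq2). Its normalized counts were 60, 68.3, 179 and 185 in CC002F1 and 31.7, 61.4, 121 and 272 in CC075F1. They stayed within 91.8 to 102 in CC080F1 and within 26.6 to 80.4 in CC036F1, the lowest line. The 2 lines with the highest means were thus also those with the widest spread, and their low values were the isotype tumors.

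**Figure D3:**
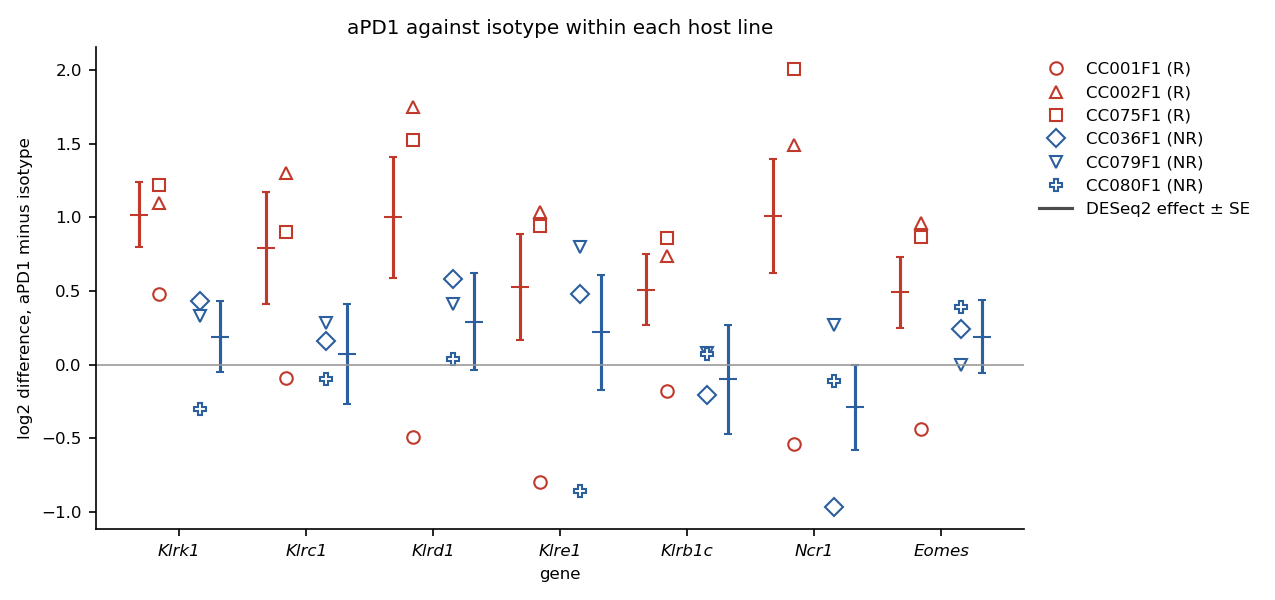
Difference of mean log2(normalized count + 1) between aPD1 and isotype tumors of each host line (open symbols, red for responder and blue for non-responder lines), with the DESeq2 effect and its standard error within each class as bars. CC002F1 and CC075F1 are above 0 for all 7 members, whereas CC001F1 is below 0 for all but Klrk1.

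The third comparison asked what aPD1 changed within 48 h. Over the 6 lines, adjusted for line, no member was called in DESeq2 (2.55% of genes were called and higher) or edgeR (0.0569%). An unadjusted p under 0.05 was found for 3 members in DESeq2 and 2 in edgeR. The members' median log2 effect was 0.41, against -0.00 over all genes tested. Closest to the threshold was Klrk1 (0.65 ± 0.22, adjusted p = 0.0726). It was higher with aPD1 in 5 of 6 lines, and 15.6% of genes were higher in at least 5 lines. Klrk1 passed without the tumors with lymph node genes (0.80, adjusted p = 0.0315, where 3.82% of genes were called and higher), and without any of CC001F1 aPD1 replicate 1, CC036F1 aPD1 replicate 2, CC080F1 isotype replicate 1 and CC080F1 aPD1 replicate 1 (adjusted p from 0.00145 to 0.0458). Klrd1 (0.68 ± 0.26, adjusted p = 0.138) passed without CC001F1 aPD1 replicate 1 or CC080F1 isotype replicate 1 (adjusted p = 0.016 and 0.0203). The fits without these single tumors called from 547 of 16000 to 801 of 15552 genes in either direction. With all tumors 464 of 16638 were called.

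Within R lines 1 member rose with aPD1, Klrk1 (1.02 ± 0.22, a fold of 2.03, adjusted p = 0.000926 in DESeq2), where 4.85% of genes did. Its normalized counts went from 395 and 343 with isotype to 701 and 885 with aPD1 in CC002F1, and from 484 and 513 to 1662 and 819 in CC075F1. In CC001F1 they were 623 and 665 with isotype and 538 and 1504 with aPD1, so the aPD1 tumors of that line lay on either side of the isotype ones. The call was lost without CC002F1 isotype replicate 2 (0.98, adjusted p = 0.0528). In edgeR no member was called within R lines, where 0 of 24858 genes were. There 5 members had an unadjusted p under 0.05, and Klrk1 had an adjusted p of 0.0697.

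The other members changed with aPD1 in R lines by 1.01 ± 0.39 (Ncr1), 1.00 ± 0.41 (Klrd1), 0.79 ± 0.38 (Klrc1), 0.53 ± 0.36 (Klre1), 0.51 ± 0.24 (Klrb1c) and 0.49 ± 0.24 (Eomes) on the log2 scale, none of them called. These values joined lines that differed. Ncr1 was 2.01 higher with aPD1 in CC075F1 and 1.49 higher in CC002F1 but 0.54 lower in CC001F1, as differences of mean log2(normalized count + 1). For Klrd1 the differences were 1.53, 1.75 and -0.49 in the same order.

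The count within R lines was unstable in both directions. Klrk1 was no longer called without host line CC002F1 (0.98, adjusted p = 0.222), which left a count of 0, as without CC002F1 isotype replicate 2. Leaving out tumors of CC001F1 added calls. Without CC001F1 aPD1 replicate 1, which held 14486 normalized counts of the muscle genes, 5 members were called (Ncr1, Klrd1, Klrc1, Klrk1 and Eomes), where 7.85% of genes were called and higher. Without both antibodies' tumors of CC001F1, all 7 were called, from 0.85 for Klrb1c to 1.79 for Ncr1, where 5.37% of genes were. Without the 3 R tumors with muscle genes the count was 3 (Klrd1, Klrc1 and Klrk1), where 4.63% of genes were, and in the deep libraries it was 2 (Ncr1 and Klrk1), where 5.39% were. Leaving out CC001F1 isotype replicate 1, CC001F1 isotype replicate 2 or CC001F1 aPD1 replicate 2 also added calls, of Klrc1, of Ncr1 and Klrd1, and of Ncr1, respectively.

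Within NR lines no member was called in DESeq2 (0.0407% of genes were called and higher) or edgeR (0.0204%). No member had an unadjusted p under 0.05 in either. Effects ran from -0.29 ± 0.29 for Ncr1 to 0.29 ± 0.33 for Klrd1. CC036F1 had 80.4 and 44.2 Ncr1 normalized counts with isotype and 33.7 and 26.6 with aPD1, while CC079F1 and CC080F1 stayed between 55.8 and 102. The Ncr1 ranges of CC036F1 did not overlap between antibodies, but with 2 tumors each this was not set against other genes. The value of 80.4 came from a shallow library.

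Whether the effect of aPD1 differed between classes was tested as an interaction. No member was called in DESeq2 (0.0190% of genes were called and higher) or edgeR (0 of 26342 genes), with 2 members at an unadjusted p under 0.05 in each. The effect in R lines exceeded that in NR lines by 1.33 ± 0.53 for Ncr1 (adjusted p = 0.536) and by 0.84 ± 0.35 for Klrk1 (adjusted p = 0.581). Without CC001F1 aPD1 replicate 1 the Klrk1 difference was 1.02 and called (adjusted p = 0.0356). That fit called 305 of 13518 genes in either direction, against 10 of 26342 with all tumors. Without the whole of CC001F1 it was Ncr1 that was called (2.10, adjusted p = 0.00245), where 104 of 17401 genes were. With all tumors, the effects of the classes were not shown to differ for any member.

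The NK gene complex differs between strains, so its other genes were set beside the members by host line. Of 23 further complex genes in the table, 13 differed among lines and 7 among lines of a class in DESeq2, of 22 tested, where 16% and 6.29% of all genes did. In edgeR these counts were 10 and 5, where 6.32% and 1.91% of all genes were called. Klra3, Klra9 and Klra10 belong to the Ly49 family of receptors for class I molecules. Klra3 had a mean of 93.1 normalized counts in CC075F1 and 1.69 to 32 in the other lines. Klra9 had 47.2 in CC075F1 and 32.4 in CC080F1, against 3.79 in CC036F1, and Klra10 had 24.4 in CC075F1 and was at 0 in all 4 tumors of CC079F1. Klrb1 averaged 15.4 in CC075F1, the line where its neighbor Klrb1c was highest, and 1.61 or fewer elsewhere. It had no adjusted p for lines, and its values in CC075F1 (1.54 to 38.7) overlapped those of CC080F1 (up to 3.75).

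Other genes of the complex were highest in other lines. Klra5 averaged 62.5 in CC002F1 and 4.25 in CC075F1, and Clec2i, a lectin-like gene that encodes a ligand of the NKR-P1 family, averaged 157 in CC080F1 and 51.7 or fewer in the others. Klrc3 averaged 9.96 in CC001F1 and was at 0 in all 4 tumors of CC079F1. Its other means were 4.24 and 5.06 in R lines and 1.22 or fewer in NR lines. Lines of a class were not called apart for Klrc3 (adjusted p = 0.7 in DESeq2). By contrast Klra4 stayed within means of 1106 to 1332 in all 6 lines. Reads of Klra and Klrc genes can map to several copies, and the authors' counting split such reads between genes and founder haplotypes, so the levels of these genes are less certain than their spread shows. Whether sequence differences of a haplotype moved counts of Klrb1c, Klre1 or these genes was not tested.

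**Figure D4:**
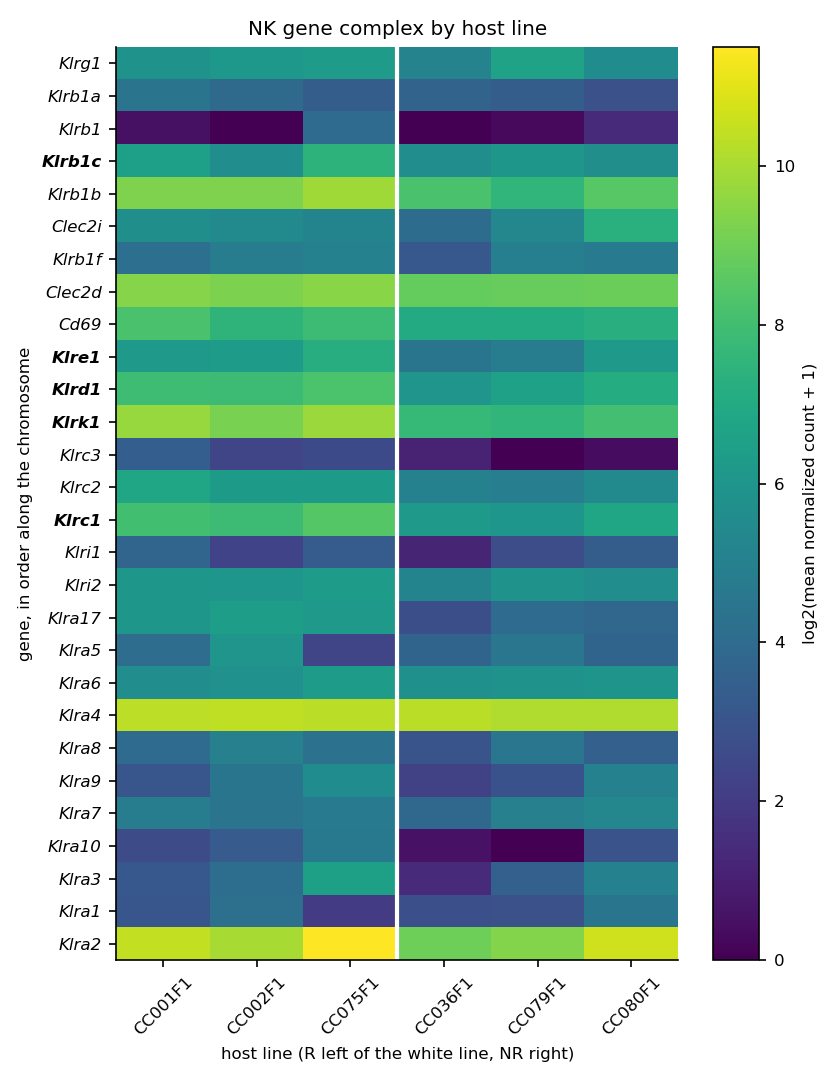
Color map of log2(mean normalized count + 1) for the 5 members of the NK gene complex on chromosome 6 (bold) and 23 further complex genes, in order along the chromosome, by host line, with responder lines left of the white line. Klrb1 and Klra3 are brightest in CC075F1 and Clec2i in CC080F1, whereas Klra4 is alike in all lines.

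Across classes, 7 of the 21 complex genes tested were higher in R tumors and none lower, with a median log2 difference of 0.71. Of all genes tested, 7.66% were called and higher. The count of complex genes called in either direction was 6 in edgeR and 3 in the deep libraries, where 6.70% and 9.83% of all genes were. Klra17, a Ly49 gene known from plasmacytoid dendritic cells and other myeloid cells, was 2.42 ± 0.38 higher (adjusted p = 8.76e-08 in DESeq2), with line means of 66.7 to 83.2 in R and 5.77 to 15.1 in NR lines. Klrc2, which encodes the activating NKG2C chain, was 1.31 ± 0.30 higher, and Klrb1b, an inhibitory receptor, 1.21 ± 0.29. Klra2, expressed in myeloid cells, was 0.98 ± 0.34 higher (adjusted p = 0.0328 in DESeq2). It was not called in edgeR (adjusted p = 0.0606) or in the deep libraries (0.145 in DESeq2). Its R line means were 2889.7 normalized counts in CC075F1, 1374 in CC001F1 and 1026 in CC002F1. NR line means were 1633 in CC080F1, 665 in CC079F1 and 501 in CC036F1. CC080F1 thus lay above CC001F1 and CC002F1, and lines of a class differed (adjusted p = 1.6e-11 in DESeq2). With aPD1 in R lines 8 of 18 complex genes tested were called higher in DESeq2, where 4.85% of all genes were, and none lower, among them Klrb1b (1.25 ± 0.22, adjusted p = 2.48e-05) and Klra17 (1.64 ± 0.34, adjusted p = 0.00037). In edgeR none of them was called, and 0 of 24858 genes were.

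Signaling partners of the receptors were higher in R tumors for 9 of 13 genes and lower for none, with a median of 0.58. Of all genes tested, 7.66% were called and higher. Both edgeR and the deep libraries called 8 of the 13 genes. Cd247 (CD3 zeta) was 1.22 ± 0.28 higher, Lck 1.13 ± 0.26 and Zap70 1.10 ± 0.25, all also used by the T cell receptor, and Sh2d1b1 (EAT-2) was 0.81 ± 0.28 higher. Of the adaptors that carry the signal of NKG2D, Tyrobp (DAP12) was 0.57 ± 0.13 higher (adjusted p = 0.000191) and Hcst (DAP10) was not called (0.30 ± 0.27). Among 16 further activating and co-receptors, 11 of 15 tested were higher and none lower, with a median of 0.77. Il12rb2 (1.91 ± 0.35), Cd226 (1.69 ± 0.36) and Tigit (1.19 ± 0.32) led them. The count of these co-receptors was 8 in edgeR and 9 in the deep libraries.

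Of 10 transcription factor genes of NK cells other than Eomes, 2 were higher in R tumors and none lower, with a median of 0.20. Of all genes tested, 7.66% were called and higher. The count was also 2 in edgeR and in the deep libraries. Tbx21, the T-box relative of Eomes, was 1.25 ± 0.24 higher (adjusted p = 1.26e-05 in DESeq2) and Runx3 0.53 ± 0.11. With aPD1 over all lines, Id2 (0.44 ± 0.13) and Prdm1 (0.42 ± 0.12) rose. Effector genes were higher in R tumors for 7 of 13 and lower for none (median 0.74), among them Ifng (1.89 ± 0.33), Gzmk (1.56 ± 0.57, a low gene with a mean of 19.6 normalized counts), Nkg7 (1.48 ± 0.28) and Fasl (1.38 ± 0.29). Between classes, edgeR and the deep libraries each called 6 effector genes. Ccl3 rose with aPD1 over all lines (1.13 ± 0.23).

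Ligands were tested for 9 genes, of which 3 were higher and 1 lower in R tumors, with a median of 0.17. Of all genes tested, 7.66% were called and higher, and 14.4% were called in either direction. The ligands called in either direction were 3 in edgeR and 2 in the deep libraries. H2-T23, which encodes Qa-1, the ligand of the NKG2A and CD94 pair, was 0.97 ± 0.19 higher (adjusted p = 1.67e-05), and Cd48 0.36 ± 0.08. Ulbp1, a ligand of NKG2D, was 0.16 ± 0.05 higher, while Raet1d (0.17 ± 0.13) and Raet1e (0.34 ± 0.19), both ligands of NKG2D, were not called. Nectin2, a ligand of CD226 and TIGIT, was 0.22 ± 0.07 lower (log2 -0.22), and Pvr rose with aPD1 over all lines (0.28 ± 0.07). Among cytokine genes that support NK cells, 1 of 4 tested was higher in R tumors, Il15ra (0.27 ± 0.06, adjusted p = 0.000183), and Il15 was not called (0.22 ± 0.13).

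Markers of other cell types moved with the members. Of all genes tested, 7.66% were called and higher in R tumors. Of 10 T cell markers, 9 were higher in R tumors and none lower (median 1.14), led by Cd8a (1.78 ± 0.39), Cd8b1 (1.48 ± 0.40), Cd3e (1.47 ± 0.40) and Cd3g (1.39 ± 0.41). Their summed normalized counts ran from 1473 to 3184 in R isotype, 1734 to 6144 in R aPD1, 843 to 2559 in NR isotype and 932 to 2406 in NR aPD1 tumors, and only Cd3g was at 0 in 1 tumor. The 7 members summed to 785 to 1668, 1063 to 3941, 464 to 1143 and 569 to 745 in the same groups. Between classes, 9 T cell markers were called in edgeR and 7 in the deep libraries. The part of T cells in the levels of the members was not tested.

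Macrophage markers were higher in R tumors for 4 of 6 (C1qa by 0.57 ± 0.11, Adgre1 by 0.43 ± 0.11), where 7.66% of all genes were. The count was 3 in edgeR and 4 in the deep libraries. Sums of the macrophage markers were 57254 to 159977 in R and 47234 to 103491 in NR tumors. Of 4 markers of type 1 innate lymphoid cells, Cxcr6 was higher (1.47 ± 0.34), a gene also known from T cells, and Il7r rose with aPD1 over all lines (0.89 ± 0.25). In edgeR none of the genes named above for aPD1 over all lines (Id2, Prdm1, Ccl3, Pvr and Il7r) was called. In the deep libraries Id2, Prdm1, Pvr and Il7r were not called either, and 2 effector genes were. Neither B cell markers (sums from 472 to 5496), skeletal muscle markers nor lymph node markers were called between the classes over all tumors, and Glycam1 was at 0 in 20 of the 23 tumors. In aPD1 tumors alone, all 5 muscle markers were called higher in R lines, and 4 of 6 B cell and 3 of 5 lymph node markers were called lower in DESeq2, against 0, 0 and 1 called in edgeR. The part of these tissues in the members' levels was not tested beyond the fits without those tumors given above.

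How closely each member followed Cd8a and Ncr1 over the 23 tumors was measured on log2(normalized count + 1), with 13 relations in all and two-sided permutation tests of 100000 resamples. With Cd8a, Pearson's r was 0.92 for Klrc1 (Spearman's rho 0.95), 0.89 for Klrk1 (0.89), 0.83 for Klrd1 (0.85) and 0.78 for Klre1 (0.85), each with an adjusted permutation p of 9.75e-05 or lower. The smallest p that the resampling could give was 1e-05. For Klrb1c r was 0.48 (rho 0.47, adjusted permutation p = 0.0353 and 0.0483), for Ncr1 0.35 (rho 0.32, adjusted permutation p = 0.108 and 0.149) and for Eomes 0.27 (rho 0.29, adjusted permutation p = 0.213 and 0.177).

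Within classes the relation with Cd8a held for Klrc1 (r = 0.91 in 12 R and 0.84 in 11 NR tumors) and Klrk1 (0.83 and 0.81). It was 0.76 and 0.67 for Klrd1, 0.81 and 0.44 for Klre1 and 0.68 and -0.15 for Klrb1c. For Ncr1 r was 0.33 and 0.13, and for Eomes it was 0.61 in R and -0.36 in NR tumors. In the 17 deep libraries r with Cd8a was 0.90 for Klrc1 and Klrk1, 0.84 for Klrd1, 0.91 for Klre1, 0.61 for Klrb1c, 0.50 for Ncr1 and 0.13 for Eomes. The 6 shallow libraries gave 0.97, 0.86, 0.89, 0.42, 0.91, 0.68 and 0.71 for Klrc1, Klrk1, Klrd1, Klre1, Klrb1c, Ncr1 and Eomes. Without the 2 tumors farthest from the median of Cd8a, r stayed at 0.94 for Klrc1, 0.89 for Klrk1, 0.87 for Klrd1, 0.73 for Klre1, 0.55 for Klrb1c, 0.38 for Ncr1 and 0.33 for Eomes.

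With Ncr1 as the reference the relations were looser, with r of 0.63 for Klrd1 (rho 0.53, adjusted permutation p = 0.00317 and 0.0253), 0.58 for Klre1 (rho 0.51, 0.00704 and 0.0291), 0.48 for Klrk1 (rho 0.43), 0.47 for Klrc1 (rho 0.35), 0.46 for Klrb1c (rho 0.33) and 0.43 for Eomes (rho 0.37). For the last 4 genes only Pearson's r passed after adjustment, with a permutation p of 0.0353 to 0.0474, and rho did not, with 0.0645 to 0.144. Without the 2 tumors farthest from the median of Ncr1, r fell to 0.51 for Klrd1, 0.38 for Klre1, 0.27 for Klrk1 and Klrb1c and 0.22 for Klrc1, and was 0.50 for Eomes. For Klre1, Klrk1, Klrc1 and Klrb1c the relation with Ncr1 then no longer passed (adjusted permutation p from 0.131 to 0.337). Leaving out the most extreme Ncr1 values narrows their range, so a fall of r does not show that the relation rested on those tumors. In the deep libraries r was 0.73, 0.65, 0.58, 0.61, 0.40 and 0.46 for Klrd1, Klre1, Klrk1, Klrc1, Klrb1c and Eomes, and in R and NR tumors it was 0.73 and 0.42 for Klrd1 and 0.76 and -0.38 for Eomes. Tumors of a line share a host, so these p-values treat them as more independent than they were.

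**Figure D5:**
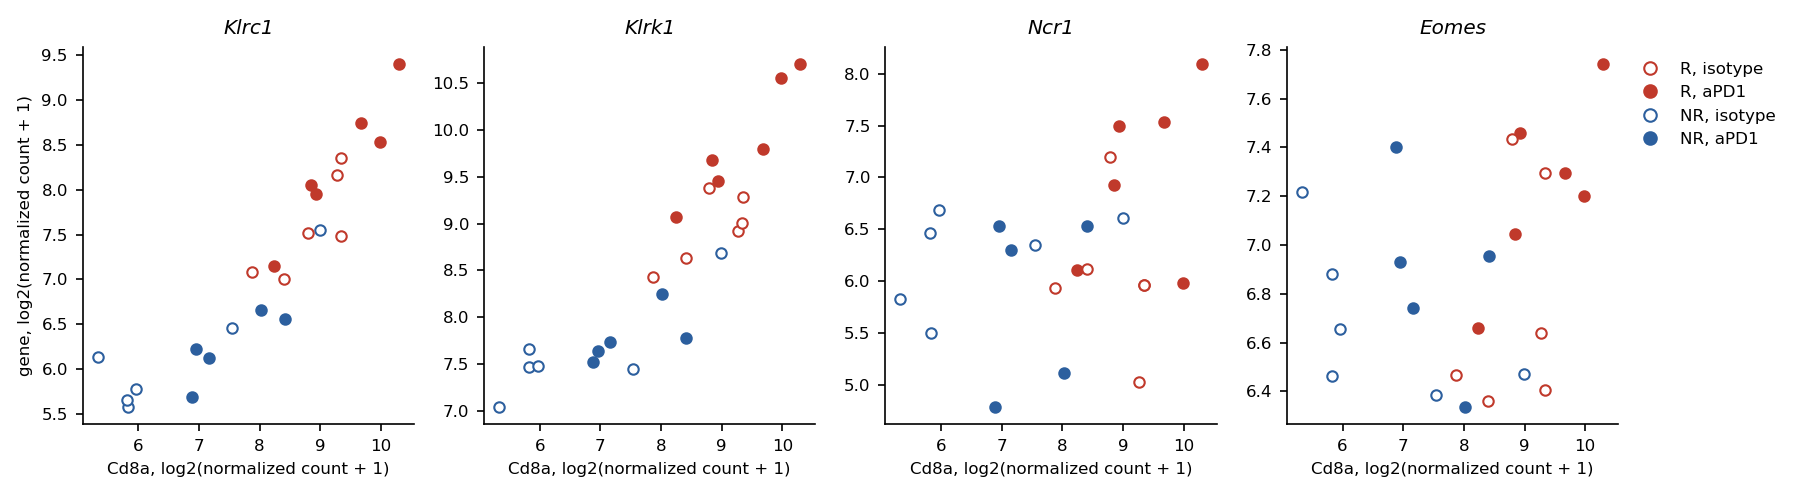
Log2(normalized count + 1) of Klrc1, Klrk1, Ncr1 and Eomes against that of Cd8a in 23 tumors, with classes in red (R) and blue (NR) and antibodies as open (isotype) and filled (aPD1) points. Klrc1 and Klrk1 follow Cd8a closely (r = 0.92 and 0.89), and Ncr1 and Eomes are scattered (r = 0.35 and 0.27).

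Among the members themselves, the strongest pairs were Klrc1 with Klrk1 (r = 0.94), Klrc1 with Klrd1 (0.91) and Klrd1 with Klrk1 (0.88), and the weakest Klre1 with Eomes (0.39), all as descriptions over the same 23 libraries. Of 14829 genes with a mean of at least 20 normalized counts, the 3 most like each member were then listed. For Klrc1 these were Nkg7 (r = 0.98), Rinl and AW112010 (both 0.95), for Klrk1 AW112010 (0.98), Fgl2 (0.97) and Dnase1l3 (0.96), and for Klrd1 Ptpn22 (0.93), Nkg7 and Il2rb (both 0.92). Klre1 was closest to Gm4759 (0.89), Gm1966 (0.88) and Itga4 (0.87). The nearest genes of the others were less alike, with Il6ra (0.82), Necap2 and Txk (both 0.80) for Ncr1, Acp5 (0.84), Plxnc1 (0.81) and Lyz2 (0.79) for Klrb1c, and Tnfrsf9 (0.81), Ctsg (0.79) and Gzmd (0.76) for Eomes. Lyz2, the lysozyme gene of macrophages, is not an NK cell gene, and Tnfrsf9 encodes 4-1BB, an activation marker of T and NK cells.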

How the data were processed

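RNA was sequenced from 23 whole tumors as poly(A) libraries. The authors mapped reads with Bowtie 1.2.3 to transcriptomes of the CC founder strains on GRCm38 (mm10), and gbrs then assigned them to genes and founder haplotypes. The authors deposited expected counts, not scaled for depth, with reads shared between genes or haplotypes split. They were rounded to whole numbers, and library totals moved by 67 counts or fewer. Genes were named from GENCODE vM21, which matched 26681 of 26869 identifiers. The 188 others held 0.0993% of counts.

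Groups came from the labels, and the R and NR classes from the study's text. The members and all gene lists were chosen with earlier results of these data known, and the lists are short lists of textbook genes. Replicate libraries are labelled as biological replicates.

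Differences were tested in R 4.3.3 with DESeq2 1.42.0 (Wald test, or likelihood ratio test for lines), on genes with at least 5 summed counts, with two-sided tests. The minimum was over the libraries of each fit. Genes without an adjusted p were left out of percentages. All 7 members were tested in every comparison. Outside the members, the genes named from a list were up to 4 called for class or for antibody over all lines, with the largest change and a mean of at least 20 normalized counts, or otherwise its 2 most abundant. One gene that met this rule is not reported here. Gzmk, Tyrobp, Hcst, Ulbp1, Raet1d, Raet1e, Il15, the complex genes described by line, and the nearest neighbors' comments were chosen after their values were seen. Alternatives were edgeR 4.0.16 (quasi-likelihood), limma 3.58.1 (voom, line as random effect), TMM size factors, other count filters, a replicate block, a depth term, deep libraries only, and fits without single tumors or lines. The fits without tumors with lymph node or muscle genes were added after the data had been seen. Scripts were tested on simulated data.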

Additional observations from a re-analysis of the deposited data

Results flagged for a closer look

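Of 28 groups of members' values checked by class and antibody, 1 held a tumor far from the others. Among the 6 aPD1 tumors of R lines, Klrd1 was lowest in CC001F1 aPD1 replicate 1, with 111 normalized counts against 302 in the next tumor, a gap of 0.628 of the whole range. By chance about 1 in 20 such groups is marked, so 1 of 28 is no more than chance gives. The same tumor had the most counts of skeletal muscle genes (14486) and was the lowest aPD1 tumor of R lines for Klrk1 (538), Klrc1 (141), Klre1 (34) and Eomes. Without it Klrd1 was called higher with aPD1 in R lines (1.31 on the log2 scale, DESeq2 adjusted p = 5.66e-06). The part of muscle tissue in these low values was not tested.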

How the results depend on the processing

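Counts of called members kept within 1.5 times of the reported one under TMM size factors, filterByExpr and no filter on low counts in all 9 comparisons. Among lines of a class the count of 2 was 1 in edgeR and without CC002F1, CC036F1, CC075F1 or CC080F1, and 4 without the tumors with muscle genes. Between classes over all tumors, 5 became 3 without CC036F1. In isotype tumors 2 became 0 in edgeR, limma and the deep libraries, 1 without CC001F1, CC036F1, CC079F1 or the tumors with muscle genes, and 4 without CC080F1. In aPD1 tumors 5 became 3 in edgeR and 1 in limma. For aPD1 over all lines, 0 became 2 without CC001F1 or CC080F1 and 1 without the tumors with lymph node genes. For aPD1 in R lines, 1 became 2 with a depth term or in the deep libraries, 3 without the tumors with muscle genes, 7 without CC001F1 and 0 in edgeR or without CC002F1. The interaction count of 0 became 1 without CC001F1. Of 13 correlations, 11 passed, and 7 did without the 2 farthest tumors. Leaving out 1 tumor at a time gave 5 to 5 members among lines, 1 to 2 within classes, 4 to 5 between classes, 2 to 4 in isotype and 4 to 6 in aPD1 tumors, and for aPD1 0 to 2 over all lines, 0 to 5 in R lines, 0 to 0 in NR lines and 0 to 1 for the interaction. Calls over all genes also moved between these fits, in isotype tumors from 829 of 14995 to 1588 of 16554 without CC080F1. The cause of these changes was not tested, except that fewer samples enter some fits.

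Signs turned only for small differences far from the threshold. Between classes in isotype tumors, Ncr1 was 0.04 with a depth term, -0.45 to 0.01 without single tumors (0.01 without CC075F1 isotype replicate 1), 0.09 without CC075F1 and 0.08 without CC080F1, and Eomes was -0.20 in the deep libraries, -0.04 to 0.24 without single tumors (-0.02 and -0.04 without CC001F1 isotype replicates 1 and 2), -0.25 without CC001F1 and -0.03 without the tumors with muscle genes. For aPD1 in NR lines, Ncr1 was 0.10 without CC036F1, Klrb1c was 0.22 with a depth term, 0.46 in deep libraries, -0.28 to 0.30 without single tumors (above 0 without CC036F1 isotype replicate 1 or aPD1 replicate 1) and 0.08 without CC036F1, and Eomes was -0.01 to 0.35 without single tumors (-0.01 without CC036F1 aPD1 replicate 2). Klrc1 there was -0.01 with a depth term, -0.06 in deep libraries, -0.12 to 0.34 without single tumors (below 0 without CC036F1 isotype replicate 2, CC036F1 aPD1 replicate 1, CC079F1 isotype replicate 2 or CC080F1 isotype replicate 2), -0.02 without CC036F1, -0.04 without CC079F1 and -0.03 without the tumors with muscle genes. Klre1 was -0.03 in deep libraries and -0.13 without CC079F1, and its interaction was -0.07 to 0.62 without single tumors (below 0 without CC075F1 or CC080F1 aPD1 replicate 1), -0.00 and -0.07 without those lines and -0.21 without the tumors with lymph node genes. Of 2103 values of single members or relations under alternatives, 1968 kept direction and call, 59 lost the call, 44 gained it and 32 turned sign. The 266 values among lines and the 266 among lines of a class are spans between highest and lowest line. Such spans cannot turn sign, so for them only the call could change.

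Over all genes, calls moved more, from 829 to 30 (edgeR), 44 (deep libraries) and 3 (limma) between classes in isotype tumors, from 1361 to 560 (edgeR) and 199 (limma) in aPD1 tumors, and for aPD1 from 464 to 15 over all lines and from 826 to 0 in R lines (edgeR). The deviations of same-numbered isotype and aPD1 tumors correlated at -0.154 to 0.252 over 5 lines, with 0.252 in CC001F1 and 0.141 in CC036F1. Over all 55 pairs of groups the values ran from -0.312 to 0.252, and 50 were at or under 0.1. Whether replicate numbers pair the tumors of a line was not tested further. The replicate block was a single term for replicate number over all lines, so it could not test pairing within a line. With a replicate block, 5, 2, 5, 2, 5, 0, 1, 0 and 0 members were called in the 9 comparisons in the order of the report (lines, lines of a class, classes, isotype, aPD1, then aPD1 over all, R and NR lines and the interaction), as without it. Over all genes the block moved the calls from 11 to 52 in NR lines and from 10 to 123 for the interaction. Shallow libraries limit Klre1 most.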
